A study of Bos taurus with 14 samples.

Results

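Untreated endometrial explants of 4 cows with high serum progesterone were compared with those of 3 cows with low serum progesterone. The members were the 7 Control explants among the 14 explants sequenced in the study, and the group of each cow was the one assigned by its authors from a serum assay, whose concentrations were not analysed here. Cows 2, 3, 4 and 5 made up the high group, and cows 1, 6 and 7 the low group. The uteri came from heifers at an abattoir whose ovaries carried a regressing corpus luteum, and intercaruncular endometrium was punched out, freed of myometrium and cultured with 1 biopsy per well for 30 h in RPMI medium with penicillin, streptomycin and amphotericin B. Control wells of both groups received the amount of DMSO that was used to dissolve sPIF, a synthetic copy of the embryo peptide preimplantation factor, in the treated wells. The other explant of each cow was cultured with sPIF at 100 nM for the same 30 h and is used here only for values set beside those of the Control explants. The age of the heifers was not given in the sources used here. The labels stage all 7 ovaries as follicular. The paper, however, takes the unexpectedly high serum progesterone of some samples as a sign of the luteal phase. Whether the cows with high serum progesterone were in that phase was not tested here.

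Progesterone is secreted by the corpus luteum and acts in the endometrium through a nuclear receptor in stroma, glands and luminal epithelium. Under progesterone the bovine endometrium takes up and secretes the lipids, amino acids and proteins that feed the conceptus, and local immune responses are dampened. As the corpus luteum regresses, serum progesterone declines and oestradiol from the growing follicle takes over.

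The total count per Control library lay between 15885642 in cow 1 and 25771250 in cow 3, with a median of 17752182. It was 20270259 ± 3730190 (SD, n = 4) in the high group and 17005657 ± 987732 (SD, n = 3) in the low group, and these totals did not differ beyond the spread among animals (p = 0.171 in a two-sided exact permutation test, which ran through all 35 ways to divide 7 cows into 4 and 3 and can go no lower than 0.0286). Cows 1 to 4 were sequenced in lane 1 and cows 5 to 7 in lane 2, so that lane 1 held 3 high cows and 1 low cow and lane 2 held 1 high cow and 2 low cows. Each cow gave 1 Control library, so the spread between cows includes the error within a cow. Of 24616 genes in the count table, 13425 had at least 10 counts in all 7 Control libraries and were tested. No gene had at least 10 counts in all libraries of 1 group and 0 counts in all libraries of the other. Levels are given as CPM, counts scaled to one library size after TMM normalisation, and differences as log2 folds of high over low progesterone from edgeR's quasi-likelihood test with lane as a covariate, so that a log2 fold of 1 is a doubling. A gene was called at a Benjamini-Hochberg adjusted p below 0.1.

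No gene passed that threshold in edgeR (0% of those tested). There 416 genes (3.1%) were under an unadjusted p of 0.05, where 0.05 of the tested genes would be 671. In limma-voom 0 genes were called as well, and in DESeq2 31 (0.231%). Symbols were at hand for only 87 of the 13425 tested genes, all from the study's list of genes changed by sPIF in these same cows. Among these 87, RGS16 had the smallest p and was about 2.03 times higher in the high group, without overlap between the groups. Some genes without a symbol had smaller p values and are described below by identifier. VCAM1, RPRM, CYP26B1 and the smooth muscle marker SMTN had higher lane-adjusted levels in the high group and SLC5A5 a lower one at an unadjusted p under 0.05. Like RGS16, SLC5A5 was without overlap between the groups. Between the lanes, by contrast, 2583 genes (19.2%) differed, but 26 without cow 1 and 0 without cow 5.

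RGS16, a regulator of G protein signalling that speeds up the switching off of G proteins, was at 85.2, 123, 93.4 and 138 CPM in cows 2, 3, 4 and 5 and at 49.9, 74.9 and 59.3 CPM in cows 1, 6 and 7. The lowest high cow, cow 2, stood above the highest low cow, cow 6, and the order held within each lane. The means were 109.8 ± 24.7 CPM (SD, n = 4) and 61.4 ± 12.7 CPM (SD, n = 3). The log2 fold was 1.02 ± 0.19 (SE), with a 95% interval of 0.57 to 1.47; it was 1.01 within lane 1 and 1.04 within lane 2. The unadjusted p of edgeR was 0.00085 and its adjusted p 1.00, while DESeq2 gave an adjusted p of 0.0220 with 4 of 4 high cows above 3 of 3 low cows. The DESeq2 call was lost without cow 1 (adjusted p = 0.799), without cow 5 (adjusted p = 0.455) and without the lane term (adjusted p = 0.686), while the log2 fold of DESeq2, 1.02 with all 7 cows, was 1.03, 1.02 and 0.84 there. An exact two-sided permutation test on log2 CPM gave p = 0.0286 over the 35 splits and p = 0.0833 over the 12 relabelings within lanes, each the smallest its design can give. RGS16 was picked for its small p on these same values, so neither p adds to the lack of overlap. Groups without overlap were seen for 373 genes, 2.78% of those tested, 161 (1.2%) with the high group above and 212 (1.58%) below. In the sPIF explants of the same cows RGS16 was at 67.4, 64.8, 73.8 and 101 CPM in cows 2, 3, 4 and 5. It was at 41.6, 43.6 and 47.3 CPM in cows 1, 6 and 7, again without overlap, with a log2 fold of 0.93. These are the same animals, so this is no repeat in new cows. The share of all genes without overlap in the sPIF explants is not given here. In bulk tissue such as this, fewer cells of a type and less RNA per cell cannot be told apart.

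**Figure D1:**
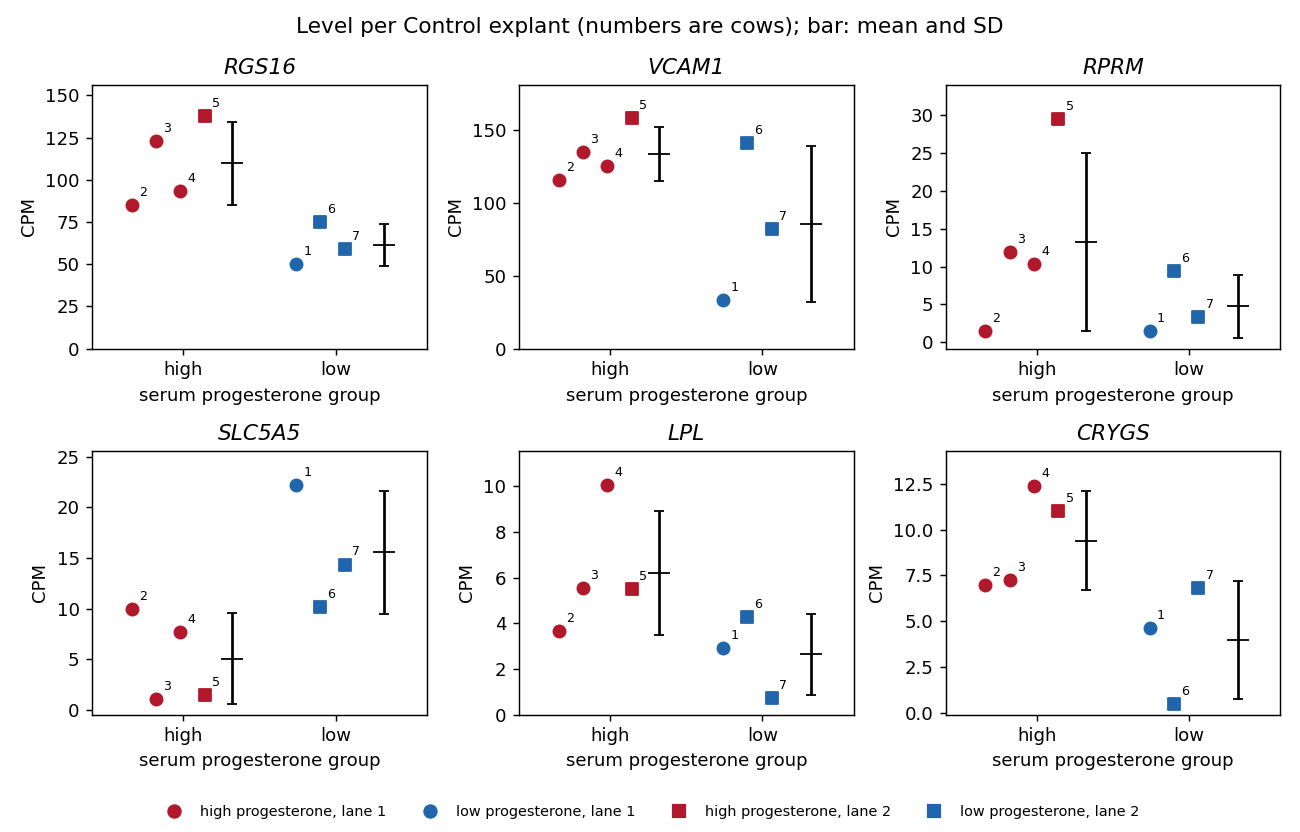
CPM of 6 genes in each Control explant, by serum progesterone group and marked by cow number and lane, with the mean and SD of each group at its right. RGS16 and CRYGS lay higher and SLC5A5 lower in all 4 high cows than in all 3 low cows, while the groups overlapped for VCAM1, RPRM and LPL.

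Genes of NF-kB and TNF signalling, the pathway by which cytokines switch on adhesion molecules and inflammatory mediators, are described next. VCAM1, the endothelial adhesion molecule that holds leukocytes through their integrins, was at 115, 135, 125 and 158 CPM in cows 2, 3, 4 and 5 and at 33.7, 141 and 82 CPM in cows 1, 6 and 7. Cow 1 was far below the other cows and cow 6 was within the range of the high cows, so the groups overlapped over both lanes though not within either lane. The log2 fold was 1.23 ± 0.37 (SE; unadjusted p = 0.0114, adjusted p = 1.00 by edgeR), made up of 1.89 in lane 1, where cow 1 is the low cow, and 0.51 in lane 2; it was 0.64 without the lane term (unadjusted p = 0.149) and 0.51 without cow 1 (unadjusted p = 0.187). The difference between these lane values had an unadjusted p of 0.027 and an adjusted p of 1.00 in edgeR's test of the interaction. In the sPIF explants its log2 fold was 0.21, with 40.9, 32.1, 88 and 46.4 CPM in the high cows and 44.3, 27.2 and 57.2 CPM in the low cows.

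TRAF1, an adaptor of TNF receptors, was at 30.7, 80.8, 66.1 and 108 CPM in the 4 high cows, in order of cow number, and at 27.2, 48.7 and 87.3 CPM in the 3 low cows. Cow 2 lay beside cow 1, and cow 7 was above 3 of the high cows, so the groups overlapped; the log2 fold was 0.90 ± 0.40 (SE), 0.39 without the lane term and 0.25 in the sPIF explants. SELP, the selectin that starts leukocyte rolling, was at 101, 141, 144 and 257 CPM in the high cows and at 44.7, 312 and 149 CPM in the low cows. Its highest value was in low cow 6 and its lowest in low cow 1, and its log2 fold of 0.87 was 0.16 without cow 1 and turned to -0.07 when lane was left out of the fit. NFKB2, which encodes a subunit of NF-kB itself, was at 216, 293, 283 and 384 CPM in the high cows and at 257, 355 and 573 CPM in the low cows. Here the highest cow was low cow 7 and the groups overlapped, with a log2 fold of -0.11 that was 0.04 in lane 1 and -0.27 in lane 2.

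Of the 50 genes listed for NF-kB and TNF signalling, 14 could be matched by symbol and all 14 were tested. None was called by edgeR, limma-voom or DESeq2; 1, VCAM1, had an unadjusted p under 0.05, against 3.1% of all tested genes. The log2 fold was above 0 for 12 of the 14, against 48.3% of all tested genes, with a median of 0.24 against -0.01. The study listed these 14 as lowered by sPIF, and 85.7% of the tested genes of that list were above 0. The count is therefore not particular to this pathway. All 14 carry a symbol only because the study listed them as changed by sPIF in these cows, in a contrast that uses these same Control libraries, so they are not independent evidence of a direction. Within lane 1, 13 of 14 were above 0 with a median of 0.51; within lane 2, and likewise without cow 1, it was 8 of 14 with a median of 0.05. Without the lane term 3 of 14 were above 0, with a median of -0.20, and in the sPIF explants 6 of 14, with a median of -0.04. NFKB1, the other precursor subunit, was at a log2 fold of 0.30 and at -0.02 without the lane term. The inhibitor NFKBIE was at 0.18, at -0.27 in lane 2 and at -0.38 without the lane term. The receptor CD40 was at 0.02, made up of 0.35 in lane 1 and -0.34 in lane 2, so the signs of these members depended on the lane or on the lane term.

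Other genes with a symbol and higher lane-adjusted levels in the high group are described next. All come from the study's list of genes changed by sPIF, and none passed the adjusted threshold. RPRM, an arrest factor of the cell cycle downstream of p53, was at 1.43, 11.9, 10.3 and 29.5 CPM in cows 2, 3, 4 and 5 and at 1.45, 9.44 and 3.36 CPM in cows 1, 6 and 7. Cow 5 was far above the rest and cow 2 was as low as cow 1, so the groups overlapped. Its log2 fold was 2.31 ± 0.78 (SE), with a 95% interval of 0.51 to 4.12 (unadjusted p = 0.0185 by edgeR), and 1.71 in the sPIF explants; the unadjusted p was 0.0807 without cow 1, 0.103 without cow 5 and 0.138 without the lane term, where the log2 fold was 1.48. CYP26B1, which breaks down retinoic acid, was at 18.5, 35.3, 19.2 and 57.2 CPM in the high cows and at 8.42, 33.7 and 50.5 CPM in the low cows. Within each lane the high cows were above the low ones, but low cow 6 was above 2 and low cow 7 above all 3 of the high cows of lane 1. Its log2 fold was 1.00 ± 0.40 (SE; unadjusted p = 0.037 by edgeR) and -0.82 in the sPIF explants, where low cow 7 had the highest level. It was 0.07 without the lane term (unadjusted p = 0.902) and 0.45 without cow 1 (unadjusted p = 0.369), and the group means were 32.5 CPM in the high and 30.9 CPM in the low cows. CYP26B1 was the 1 gene of 18 listed for the retinoid pathway that could be matched.

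PTGDR, a receptor of prostaglandin D2 and the 1 gene matched of 21 listed for prostaglandins and oxytocin, was at 8.37, 19, 15.1 and 8.72 CPM in the high cows and at 2.18, 9.72 and 3.61 CPM in the low cows. Low cow 6 was above high cows 2 and 5, so the groups overlapped, and the log2 fold of 1.54 ± 0.73 (SE) was 2.69 in lane 1, 0.39 in lane 2 and -0.58 in the sPIF explants. HIST1H2AC, a replication-dependent histone H2A, was at 3.47, 6.93, 19.9 and 22.5 CPM in the high cows and at 3.76, 9.44 and 9.32 CPM in the low cows. High cows 4 and 5 stood above all low cows and high cow 2 below all of them; the log2 fold was 1.34 ± 0.60 (SE) and 0.81 without the lane term, and since histone genes have near-identical copies the assignment of its reads is uncertain. EMILIN2, a glycoprotein of elastic fibres, was at 43.6, 97.1, 114 and 126 CPM in the high cows and at 31.7, 118 and 85.1 CPM in the low cows. The groups overlapped, with cow 1 lowest, and the log2 fold was 0.88 ± 0.44 (SE), 0.31 without cow 1 and 0.28 without the lane term. With FMOD, which encodes the collagen-binding fibromodulin, at 0.86, EMILIN2 was 1 of 2 genes matched of 39 listed for the extracellular matrix; the median of both was 0.87, 1.76 in lane 1 and -0.06 in lane 2.

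SMTN, a cytoskeletal protein of contractile smooth muscle, was at 60.8, 73.6, 62.3 and 117 CPM in cows 2, 3, 4 and 5 and at 49, 92.8 and 99.1 CPM in cows 1, 6 and 7. All 3 cows of lane 2 were above all 4 cows of lane 1, and within each lane the high cows were above the low ones. The log2 fold was 0.36 ± 0.15 (SE, unadjusted p = 0.0444 by edgeR) with lane in the fit and -0.03 without it. With any 1 cow left out the unadjusted p by edgeR was above 0.05, from 0.0510 without cow 4 to 0.258 without cow 1. CNN1, calponin, the other smooth muscle marker that could be matched of 10 listed, was at 34.7, 45, 88.5 and 92.9 CPM in the high cows and at 25.8, 99.3 and 160.1 CPM in the low cows. Low cow 7 was highest and low cow 1 lowest, and the log2 fold of 0.35 turned to -0.54 without the lane term and to -0.47 in lane 2 and likewise without cow 1. Both markers summed to 95.5, 119, 151 and 210 CPM in cows 2, 3, 4 and 5 and to 74.8, 192 and 259 CPM in cows 1, 6 and 7, so the amount of smooth muscle RNA, as far as these markers show it, went with lane more than with progesterone group; its part in the differences above was not tested. Markers of epithelium, ciliated cells, stroma, endothelium, leukocytes, macrophages, neutrophils, mast cells, blood, nerve, and corpus luteum and follicle were not analysed here, because 0 of them could be matched by symbol.

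Among genes with lower levels in the high group, SLC5A5, the sodium and iodide symporter, was at 9.95, 1.08, 7.74 and 1.5 CPM in cows 2, 3, 4 and 5 and at 22.2, 10.2 and 14.4 CPM in cows 1, 6 and 7. All 4 high cows were below all 3 low cows, with cow 2 just below cow 6. Its log2 fold was -2.35 ± 0.76 (SE), with a 95% interval of -4.13 to -0.59 (unadjusted p = 0.0155, adjusted p = 1.00 by edgeR); it was -1.83 in lane 1, -3.02 in lane 2 and -1.57 in the sPIF explants, and the unadjusted p was 0.0852 without cow 5 and 0.052 without the lane term. FAT1, an atypical cadherin, was the other gene with a symbol whose high cows were all below the low cows, at 71.2, 57.5, 69 and 71.2 CPM in the high cows and 86.3, 99.4 and 72.5 CPM in the low cows. The gap was narrow, between cow 2 and cow 7, and the log2 fold was -0.33 ± 0.17 (SE) in Control explants and 0.03 in sPIF explants. NT5DC1 was at 4.64, 2.57, 3.01 and 2.33 CPM in the high cows and at 6.67, 2.96 and 3.73 CPM in the low cows. Low cow 1 was highest and high cow 2 next, so the groups overlapped over the lanes though not within them, with a log2 fold of -0.76 ± 0.33 (SE).

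DHCR7, the enzyme of the last step of cholesterol synthesis, was at 56.3, 33.4, 43.1 and 43 CPM in cows 2, 3, 4 and 5 and at 55.3, 61.2 and 94.2 CPM in cows 1, 6 and 7. Low cows 6 and 7 were above every high cow, while low cow 1 was just below high cow 2, and the log2 fold was -0.57 ± 0.27 (SE), -0.32 in lane 1, -0.85 in lane 2 and -0.29 without cow 5. The other matched genes of 25 listed for steroid and cholesterol synthesis were SQLE, squalene epoxidase, at a log2 fold of -0.09, and CYP24A1, the vitamin D 24-hydroxylase, at -0.25; all 3 were below 0 with a median of -0.25, and 1 of 3 was below 0 without cow 7, as without the lane term, where the median was 0.12. LCN2, a lipocalin that withholds iron from bacteria, was at 3.88, 0.634, 7.15 and 0.555 CPM in the high cows and at 5.7, 2.36 and 6.59 CPM in the low cows. The highest value was in high cow 4 and the lowest in high cows 3 and 5, so the groups overlapped, with a log2 fold of -1.58 ± 1.05 (SE) and -2.19 in the sPIF explants. It depended on single cows, at -0.56 in lane 1 and -2.98 in lane 2, -0.54 without cow 5 and -2.98 without cow 1. C3, the central complement component, was at 32.3, 41.7, 59 and 25.3 CPM in the high cows and at 54.3, 20.4 and 41 CPM in the low cows. The groups overlapped widely, and the log2 fold was -0.29 with lane in the fit, 0.04 without it and -0.04 without cow 7. SERPINA1, an inhibitor of neutrophil elastase, was at -0.64 (-0.01 without cow 5). With it, all 3 matched genes of 24 listed as antimicrobial or acute-phase had a log2 fold below 0. Their median was -0.64, but -0.12 without cow 7, -0.26 without cow 5 and -1.34 without cow 1. Without the lane term 1 of 3 was below 0, with a median of 0.04. These 3, like the 3 of steroid and cholesterol synthesis, were listed by the study as raised by sPIF; of the tested genes of that list 16 of 21 were below 0, and of all tested genes 6937 of 13425, so neither count is particular to its list.

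The remaining named genes with a symbol and a log2 fold below 0 had unadjusted p values of 0.120 to 0.534 by edgeR. ABLIM3, an actin-binding LIM protein, had a log2 fold of -0.77 ± 0.44 (SE), -0.43 without cow 7, and ranged from 27.8 CPM in high cow 3 to 95.3 CPM in low cow 7. PLEK2, a pleckstrin, had one of -0.41 ± 0.30 (SE) and ranged from 5.18 CPM in high cow 3 to 11.0 CPM in low cow 1. NPPC, the precursor of C-type natriuretic peptide, was between 2.07 and 5.39 CPM in 6 cows and at 34 CPM in low cow 7. Its log2 fold of -0.85 rested on cow 7 and was 0.46 without it. AOX1, aldehyde oxidase, was at 868 CPM in high cow 2 and 144 CPM in high cow 5, the highest and the lowest of the 7 cows. Its log2 fold was -0.43 with lane in the fit, 0.23 without it, 0.57 in lane 1 and -1.51 in lane 2.

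Genes known to respond to progesterone in the endometrium could hardly be assessed. Of 45 such genes listed, 2 were matched, and of 21 steroid receptors and their partners 0, so the progesterone receptor was not analysed here and the serum groups could not be checked against it. LPL, the lipase that frees fatty acids from lipoproteins, was at 3.67, 5.55, 10.0 and 5.5 CPM in cows 2, 3, 4 and 5 and at 2.91, 4.28 and 0.746 CPM in cows 1, 6 and 7. Low cow 6 lay above high cow 2, but within each lane the high cows were above the low ones, as for 838 genes or 6.24% of those tested. The log2 fold was 1.13 ± 0.65 (SE), with a 95% interval of -0.38 to 2.64; it was 1.14 in lane 1, 1.12 in lane 2, 1.73 without cow 6, 0.83 without cow 7 and 0.72 in the sPIF explants. CRYGS, a gamma crystallin, was at 6.99, 7.23, 12.4 and 11 CPM in the high cows and at 4.61, 0.494 and 6.84 CPM in the low cows, all 4 high cows above all 3 low cows. It was left out of the test because cow 6 had 9 counts, so its lack of overlap is not counted among the 161 genes, and it is described after its values were seen. With genes of at least 10 counts in any 1 library kept, its log2 fold was 1.27 ± 0.75 (SE; unadjusted p = 0.129, adjusted p = 1.00 by edgeR). In the sPIF explants CRYGS was at 6.74, 44.3, 24.8 and 18.5 CPM in the high cows and at 10.1, 1.48 and 8.65 CPM in the low cows, where cow 1 and cow 7 stood above cow 2.

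Of 26 genes listed for heat shock and the unfolded protein response, 4 were matched, under 5 identifiers since DNAJB1 has a pair of them, and all 5 identifiers had a log2 fold above 0, with a median of 0.39, where 48.3% of all tested genes were above 0. All 5 were listed by the study as lowered by sPIF, and of the tested genes of that list 85.7% were above 0, so the count is not particular to heat shock genes. DNAJB1, a co-chaperone of HSP70, was, under the identifier with the smaller p, at 238, 203, 655 and 570.1 CPM in the high cows and at 129, 563 and 233 CPM in the low cows. Cows 4, 5 and 6 stood above the other cows, so the groups overlapped, and the log2 fold was 1.03 ± 0.59 (SE). It was 0.52 without cow 1, 0.66 without cow 4, 0.43 without the lane term and 0.32 in the sPIF explants. The others were the collagen chaperone SERPINH1 at 0.32, the endoplasmic reticulum chaperone HYOU1 at 0.39, the phosphatase regulator PPP1R15A at 0.38 and the other DNAJB1 identifier at 0.88. Within lane 2, and likewise without cow 1, 2 of 5 were above 0, and without the lane term it was 2 of 5 with a median of -0.03. IGF2, a growth factor of the insulin family and the 1 gene matched of 17 listed for the IGF system, was at 222, 492, 271 and 321 CPM in the high cows and at 158, 285 and 241 CPM in the low cows. Cow 3 was highest and cow 1 lowest, the groups overlapped, and the log2 fold was 0.69 ± 0.36 (SE). It was 1.06 in lane 1, 0.29 in lane 2, 0.29 without cow 1 and 0.04 in the sPIF explants.

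Little difference over both lanes was seen in IFNAR2, a chain of the type I interferon receptor, at a log2 fold of 0.09 with a 95% interval of -0.32 to 0.51; it was 0.32 in lane 1 and -0.15 in lane 2. With IFNAR2, the transcription factor IRF1 made up the 2 matched of 48 genes listed as interferon-stimulated genes and interferon receptors. IRF1 was at 0.18, but at 0.73 in lane 1, -0.42 in lane 2 and likewise without cow 1, and -0.51 without the lane term. SLC1A5, a glutamine carrier and the 1 gene matched of 26 listed carriers, had a log2 fold of 0.00 with a 95% interval of -0.42 to 0.43. NR1D1, the nuclear receptor REV-ERB alpha of the circadian clock and the 1 gene matched of 19 listed for the clock, was at 16, 30.2, 44.6 and 82 CPM in the high cows and at 16, 55.5 and 74.9 CPM in the low cows. The cows of lane 2 were above those of lane 1, and the log2 fold was 0.63 with lane in the fit, -0.18 without it and 0.34 without cow 1.

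**Figure D2:**
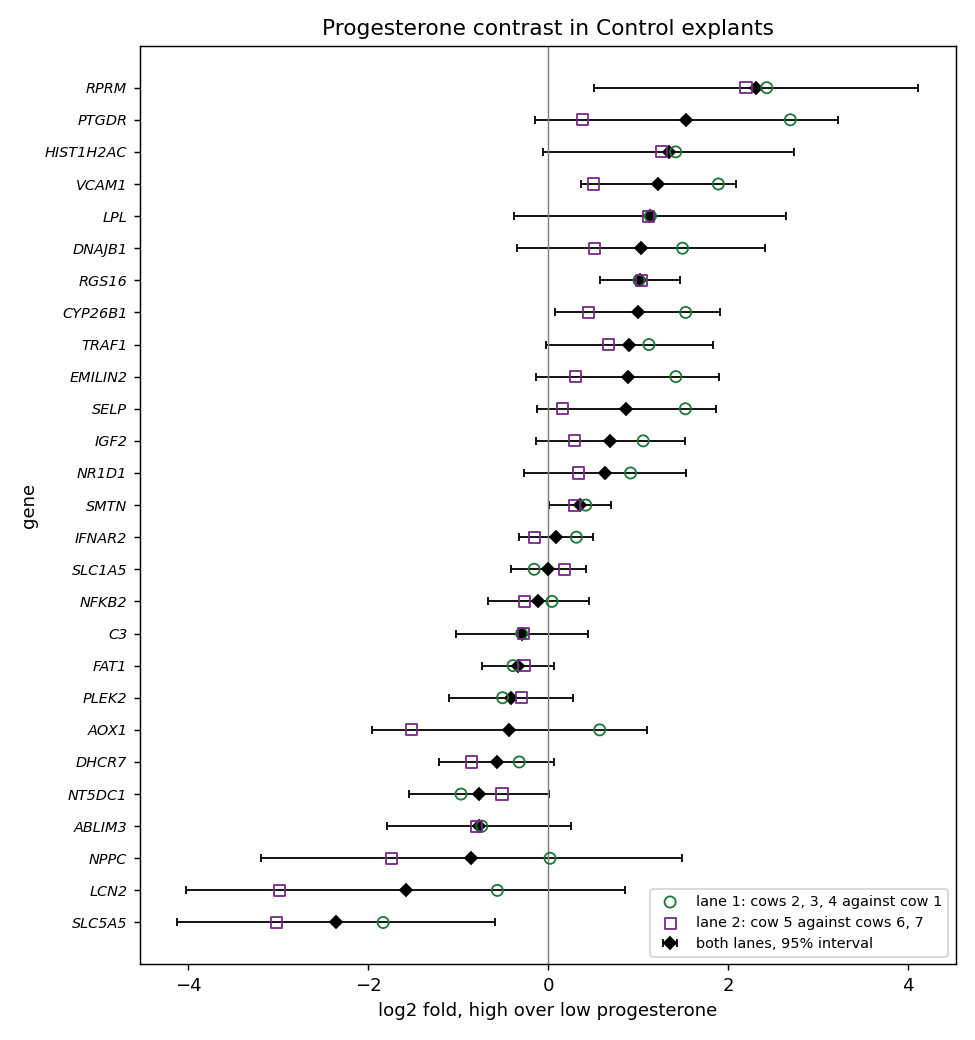
Log2 fold of high over low progesterone for the 27 named genes with a symbol, with 95% interval from both lanes together (diamonds) and the values within lane 1 and lane 2 (open symbols). The lane values of RGS16 and LPL nearly coincided, whereas those of LCN2, PTGDR, VCAM1 and SELP were far apart and those of AOX1, NPPC, NFKB2, IFNAR2 and SLC1A5 lay on both sides of 0; the sign of SMTN, SELP, C3, AOX1, SLC1A5 and NR1D1 turned without the lane term.

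The genes the study listed as changed by sPIF were examined as 1 more list; they were chosen on these same cows with these same Control libraries and are not independent evidence. Of the 78 listed as lowered by sPIF, 77 were tested in the Control explants, and 66 of them, or 85.7%, had a log2 fold above 0, against 48.3% of all tested genes; the median was 0.30 against -0.01. None was called by edgeR, 2 were called by DESeq2, which called 0.231% of all tested genes, and 6 had an unadjusted p under 0.05 with a higher level in the high group, which was 1.54% of all tested genes. This held in lane 1, where 73 of 77 were above 0 with a median of 0.64 and the low group was cow 1 alone. In lane 2, 34 of 77 were above 0 with a median of -0.04, and without cow 1 it was 34 of 78 with a median of -0.04. Without the lane term 32 of 77 were above 0, with a median of -0.10, and in the sPIF explants 42 of 76, with a median of 0.04, where 51% of all tested genes were above 0. Of the 24 genes listed as raised by sPIF, 21 were tested and 16 had a log2 fold below 0, with a median of -0.27, where 6937 of all 13425 tested genes were below 0. It was 16 of 21 in each lane alone and 17 of 23 in the sPIF explants, but 12 of 21 without the lane term, with a median of -0.24, and 12 of 21 without cow 7, with a median of -0.10.

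Over all tested genes, 416 (3.1%) reached an unadjusted edgeR p under 0.05, 207 (1.54%) with a higher and 209 (1.56%) with a lower level in the high group, where 0.05 of the tested genes would be 671. The smallest adjusted p was 1.00, so edgeR called 0 genes, and limma-voom also called 0, with 405 at an unadjusted p under 0.05. DESeq2's Wald test with the same design called 31 genes (0.231%), 17 with a higher and 14 with a lower level, and 15 of them at an adjusted p below 0.05. All 31 were under an unadjusted p of 0.05 by edgeR as well, and 29 had a log2 fold beyond 1 in size. In each of the 31 the high and low cows were apart in the same direction within both lanes, as in 1846 genes or 13.8% of those tested (838 with the high cows above and 1008, or 7.51%, below), and in 14 the groups did not overlap over the 7 cows, as in 2.78% of those tested; the calls were made on these same values, so neither count is a sign of stability. Of the 31, 2 were on the list of genes changed by sPIF and 1, RGS16, had a symbol.

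The calls of DESeq2 depended on single cows. Leaving out cow 2, 3, 5, 6 or 7 gave 64, 64, 53, 47 or 49 genes, and leaving out cow 1 or cow 4 gave 25 or 24. The genes differed: 3 of the 25 without cow 1, the low cow of lane 1, were among the 31, and 7 of the 53 without cow 5, the high cow of lane 2, against 27 of the 64 without cow 3. Without the lane term DESeq2 called 11 genes, 9 of them among the 31. In the sPIF explants of the same cows it called 63, of which 9 were among the 31, while edgeR called 0 there (0% of 13650), with 671 genes (4.92%) at an unadjusted p under 0.05 and a smallest adjusted p of 0.868. These explants came from the same animals, so values that recur there recur within cows and not in new cows. With all 14 libraries in limma-voom and cow as a random replicate block, 6 genes were called, 3 in each direction, among them RGS16. Progesterone group differs only between the 7 cows, and with both explants of each cow summed 0 of these 6 were called: edgeR called 0 genes, with 655 at an unadjusted p under 0.05 and RGS16 at an adjusted p of 0.592, and limma-voom 0, with 688 and RGS16 at 0.736.

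Genes without a symbol are given by identifier for the 2 smallest p in each direction. ENSBTAG00000034586 was at 12.7, 18.9, 24.6 and 31.8 CPM in cows 2, 3, 4 and 5 and at 5.15, 11.1 and 11.3 CPM in cows 1, 6 and 7. The groups did not overlap, and the log2 fold was 1.69 ± 0.29 (SE), and 0.83 in the sPIF explants. ENSBTAG00000003743 was at 42.3, 56.8, 51.6 and 35 CPM in the high cows and at 22.7, 16.7 and 19.7 CPM in the low cows. Again the groups did not overlap, with a log2 fold of 1.05 ± 0.19 (SE) and 1.16 in the sPIF explants. ENSBTAG00000000898 was at 54.9, 39.8, 41.3 and 22.7 CPM in the high cows and at 107, 71.5 and 48.7 CPM in the low cows. High cow 2 was above low cow 7, so the groups overlapped over the lanes, and the log2 fold was -1.32 ± 0.21 (SE), and -0.74 in the sPIF explants. ENSBTAG00000038619 was at 65.9, 54.9, 58.8 and 37.3 CPM in the high cows and at 163, 103 and 61.8 CPM in the low cows. Cow 1 stood above all others and high cow 2 above low cow 7; the log2 fold was -1.30 ± 0.21 (SE), and -1.24 in the sPIF explants. All 4 had an adjusted p of 1.00 in edgeR and between 0.00271 and 0.0128 in DESeq2.

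Differences between the lanes were larger than those between the progesterone groups. In the same edgeR fit, 2583 genes (19.2%) differed between the lanes at an adjusted p below 0.1, 1241 with a higher and 1342 with a lower level in lane 2. No cow was in both lanes, so lane cannot be told apart from the cows it held. Leaving out cow 1 gave 26 such genes, cow 2 1214, cow 5 0 and cow 7 1599; without cow 1 or cow 5, 1 lane holds cows of a single progesterone group. The median size of the log2 fold was 0.40 between lanes and 0.16 between progesterone groups, and 1637 genes had a log2 fold beyond 1 between lanes against 376 (2.8%) between progesterone groups. Of these 376, 197 had an unadjusted p under 0.05. In 2017 genes (15%) the high and low cows were apart within both lanes but in opposite directions, slightly more than the 1846 in the same direction. A test of the interaction of lane and progesterone group called 0 genes with edgeR, with 337 at an unadjusted p under 0.05, and 31 with DESeq2, with 420.

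Principal components of the regularised log values did not separate the progesterone groups. The first component, with 42.7% of the variation, put cows 1 to 4 between -19.8 and -7.46 and cows 5 to 7 between 18.1 and 21.6, that is, it followed lane. The second, with 18.4%, put cow 3 at 25.9 and the other cows between -14.0 and 2.13. The third and the fourth, with 15.6% and 11.4%, had cow 6 and cow 4 at their upper ends. For these 4 components the high and low cows differed by no more than the spread among cows (two-sided exact permutation tests with 35 splits, p = 0.486, 0.400, 0.629 and 0.286, each 0.629 after Benjamini-Hochberg adjustment over the 4 tests). Those splits ignore lane. With lane accounted for, exact permutation tests over the 12 relabelings within lanes gave p = 0.333, 0.333, 0.833 and 0.250, where the smallest possible p is 0.0833.

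**Figure D3:**
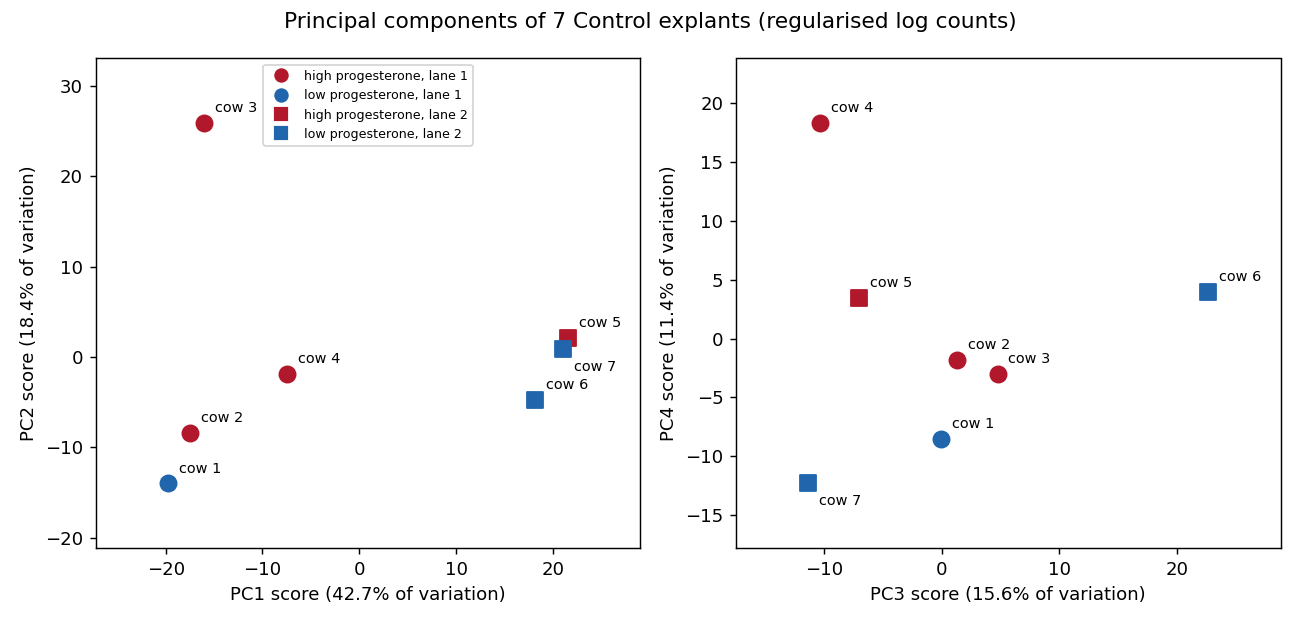
Scores of the 7 Control explants on principal components 1 and 2 (left) and 3 and 4 (right), with colour for serum progesterone group and shape for lane; axes give the share of variation. Component 1 divides the lanes, component 2 has cow 3 at 25.9, and high and low cows are mixed on all 4.

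Of the sum of squares over regularised log values, progesterone group took up 14.0% (p = 0.514, exact permutation test with 35 splits; 26.4% without cow 1 and 23.7% without cow 5) and 10.8% after lane (exact permutation test over 12 relabelings within lanes, p = 0.583, where the smallest possible p is 0.0833). Lane took up 41.5% (p = 0.0286, exact permutation test with 35 splits, the smallest these allow). The closest pair of explants over all genes was cow 1 and cow 2, of different progesterone groups and 1 lane, at a Euclidean distance of 23.0. Within a lane, pairs of different groups were 33.2 apart on average (5 pairs, 23.0 to 41.6) and pairs of the same group 36.5 apart (4 pairs, 30.5 to 39.7). Between lanes the means were 46.3 and 46.1.

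The precision of these values sets what could be seen. The 95% interval of the log2 fold reached, at the median, 0.60 to each side of the fold, and for 9133 genes, 68.0% of those tested, it lay wholly between -1 and 1. For these genes a 2-fold difference between the serum progesterone groups lay outside the interval. For the others, RPRM, LCN2 and NPPC among them, a 2-fold difference lay within it or the interval reached beyond.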

How the data were processed

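Total RNA of 14 explants was sequenced from both fragment ends. The authors used Trimmomatic 0.36.0 for trimming, Bowtie2 2.2.6 for mapping to the assembly UMD3.1 (Ensembl 89) and featureCounts 1.4.6 for counting on genes (versions from the submitters' processing notes), and for cows 5 to 7 they added the counts of repeat runs. The deposited table gives raw counts of 24616 genes, not normalised; a line of column totals was left out. Progesterone group and lane came from the paper, since the labels do not give them.

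The 7 Control columns were analysed in R 4.3.3 with edgeR 4.0.16 (TMM, quasi-likelihood test, lane plus progesterone group, 13425 genes with at least 10 counts in all 7 libraries, Benjamini-Hochberg adjustment, thresholds of 0.1 and 0.05). Total counts lay between 15885642 and 25771250. Folds are adjusted for lane and can differ in sign from the group means. Distances, sums of squares and principal components rest on the regularised log of DESeq2 1.42.0, blind to the groups. Intervals are 95% intervals of the quasi-likelihood fit and cover the spread between cows together with counting error. Alternatives were DESeq2's Wald test, upper quartile and median-of-ratios scaling, limma-voom (limma 3.58.1), other filters on low counts, no lane term, each lane alone, each cow left out, both explants of a cow summed, the sPIF explants, and all 14 libraries with cow as a random replicate block. For the sums of squares they were log2 CPM with a prior count of 2 and the 500 genes with the largest variance. The edgeR and DESeq2 fits were tested on simulated counts, and the other steps were not.

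The gene name table used here held 0 Ensembl identifiers, so symbols came from the study's list of 102 genes changed by sPIF, of which 89 carry a symbol and 27 are printed with an extra 0 in the identifier, which was removed; 98 were tested. Named genes were all genes called by edgeR, filled up to 10 per direction with the genes with a symbol and the smallest p, the member of each gene list with the smallest p in each direction, genes with a symbol called by DESeq2 or limma-voom, and 2 identifiers per direction without a symbol. Other list members appear by their fold only. CRYGS and CNN1 fall outside this rule and were added after their values were seen. Members and lists were chosen with earlier results of these data known. Lists with 0 matched genes were steroid receptors, oestrogen-responsive genes, Toll-like receptors, antigen presentation, proliferation, glycolysis and hypoxia, and WNT, FGF and gland genes. No sequence or position is given because a genome of this build was not used here. Whether the counting used strand is not given in the sources used here, so reads of overlapping or antisense genes cannot be told apart.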

Additional observations from a re-analysis of the deposited data

Results flagged for a closer look

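Among 37 groups of values examined for a single cow far from the rest (31 named genes in the 4 high cows and 6 measures over the 7 Control libraries), 4 had one; chance alone gives about 1 in 20, or 1.85 here. In the high group FAT1 was at 57.5 CPM in cow 3 and between 69.0 and 71.2 CPM in the other 3 cows; its log2 fold was -0.28 without cow 3. The total count of 25771250 in cow 3 stood above 19185319 in cow 2, the next highest. Cow 3 also had a score of 25.9 on the second principal component, where the next highest was 2.13. In cow 7 the 10 most counted genes took 12.5% of the counts, and in the other 6 cows 5.55% to 8.20%. Without cow 3, edgeR called 0 genes, with 522 at an unadjusted p under 0.05, and DESeq2 called 64; without cow 7, edgeR called 0, with 449 at an unadjusted p under 0.05, and DESeq2 called 49.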

How the results depend on the processing

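The 31 named genes had 620 log2 folds under 20 alternatives: 29, in 12 genes, changed sign, and 8 passed the threshold in the same direction; with 0 called by edgeR, no call could be lost. Upper quartile scaling, which shifts all genes alike, put SLC1A5 at -0.0051, from a log2 fold near 0, and limma-voom put it at -0.0014. Without the lane term the log2 fold was -0.0344 for SMTN, -0.0696 for SELP, 0.0367 for C3, 0.23 for AOX1, -0.18 for SLC1A5 and -0.18 for NR1D1. In lane 1 alone it was 0.0223 for NPPC, 0.57 for AOX1, 0.0438 for NFKB2 and -0.15 for SLC1A5, and in lane 2 alone -0.15 for IFNAR2. In the sPIF explants it was -0.82 for CYP26B1, -0.58 for PTGDR, 0.0331 for FAT1 and -0.16 for SLC1A5, and with both explants summed -0.0647 for SLC1A5. With 1 cow left out it ranged from -1.74 to 0.46 for NPPC, -1.51 to 0.60 for AOX1, -0.15 to 0.34 for IFNAR2, -0.27 to 0.0871 for NFKB2 and -0.13 to 0.19 for SLC1A5. The cause was not tested.

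The edgeR count of 0 called genes stayed 0 under the scalings, filters, lane settings, single cows left out and both explants summed, with 320 (without cow 1) to 559 (without cow 2) genes at an unadjusted p under 0.05 when 1 cow was left out. DESeq2 called 31. The numbers at an unadjusted p under 0.05 rest on different numbers of tested genes. They were 416 of 13425 in the main fit and 625 of 19414 with genes above 0 counts kept. With both explants summed they were 655 of 14520, and in the sPIF explants 671 of 13650. With all 14 libraries and cow as a random replicate block (correlation of the explants of a cow 0.336), limma-voom called 6 genes, with 685 at an unadjusted p under 0.05 and a log2 fold of -0.095 for SLC1A5; with both explants of each cow summed, limma-voom, added after seeing the data, called 0, with 688, and 0 of the 6. No paired analysis was possible because no cow belongs to both progesterone groups. Settings chosen after seeing the data moved the DESeq2 count from 31 to 11 without the lane term, 63 in the sPIF explants and 24 to 64 with 1 cow left out; the test of the interaction was chosen then too. The lane count of 2583 ranged from 0 to 2769 with 1 cow left out. The share of the sum of squares after lane, 10.8%, was 14.1% over the 500 most variable genes and 10.9% to 14.9% with 1 cow left out; before lane, 14.0% became 26.4% without cow 1 and 23.7% without cow 5.

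Limits are the 7 cows, of which 1 low cow in lane 1 and 1 high cow in lane 2 carry much of the lane-adjusted contrast, a filter that leaves out genes low in any library, symbols for 87 of 13425 tested genes, and groups formed from serum at slaughter while RNA was taken after 30 h of culture without the animal's own hormones.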
